A study of Mus musculus with 79 samples.

Results

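The comparison described here is the effect of ketamine on gene expression in the medial prefrontal cortex (mPFC), taken across unstressed and stressed mice. All mPFC libraries labelled Ketamine (19) were set against all mPFC libraries labelled Saline (20), with the stress group as a covariate, so 39 of the 79 libraries of the series were used. The other 40 libraries are of the ventral hippocampus (vHipp) and served only for a comparison between regions. The mice were wild-type male CD-1 (ICR) animals of 9 to 10 weeks, an outbred stock, and lived in groups of 4. CSDS mice went through chronic social defeat stress for 21 days, in a modified form in which they returned to their group after each defeat, while CTRL mice were left undefeated. Each mouse then received 1 intraperitoneal injection of (R,S)-ketamine at 10 mg/kg or of saline, and the brain was collected 7 days later. The 4 groups of mPFC libraries were CTRL mice with saline (10), CTRL mice with ketamine (10), CSDS mice with saline (10) and CSDS mice with ketamine (9). The mPFC of mouse 5, a CSDS mouse with ketamine, was not analysed here.

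Ketamine blocks the NMDA receptor, a glutamate-gated cation channel, and is known for antidepressant action that outlasts the presence of the drug in the body. In the mPFC, its acute action is commonly described as a burst of glutamate release that drives AMPA receptors, BDNF release, signaling through its receptor TrkB and through mTOR, and new synapse formation. Immediate early genes such as Fos and Arc are transcribed within minutes of neuronal activity and fade within hours. The comparison therefore asks which transcripts still differed a week after a single dose, whatever the history of stress.

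Tissue came from punches of 1 mm, so a smaller share of a cell type and less RNA per cell cannot be told apart in these bulk libraries. Total counts ranged from 15498349 to 34135805 (median 19172664) with ketamine and from 11726129 to 34501588 (median 19633155) with saline. Levels are given in CPM, counts scaled to the library total after TMM adjustment. Markers of excitatory cortical neurons summed to 2506 to 3516 CPM in every library, while the 8 choroid plexus markers summed to at most 33.7 CPM. Oligodendrocyte markers varied most among the cell types of the cortex itself, from 706 to 6908 CPM in sum.

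Across both stress groups, no transcript of the mPFC separated ketamine-treated from saline-treated mice after correction for multiple testing. Of 28993 genes tested with edgeR's quasi-likelihood test, 0 (0.0%) had a Benjamini-Hochberg adjusted p under 0.05, and the smallest adjusted p was 0.221. An unadjusted p under 0.05 was found for 839 genes (2.89%), of which 381 were higher (1.31%) and 458 were lower (1.58%) with ketamine. DESeq2, and limma-voom with the run of 4 consecutive mouse numbers as a random effect, also gave 0 genes at an adjusted p under 0.05, beside 585 and 942 at an unadjusted p under 0.05. Among the 15691 genes with a mean of at least 1 CPM, 253 (1.61%) had an unadjusted p under 0.05, of which 92 (0.586%) were higher and 161 (1.03%) were lower.

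The libraries were precise enough to bound the effect of ketamine on most expressed genes. For genes with at least 1 CPM, the standard error of the log2 fold change (LFC, ketamine minus saline) had a median of 0.056, and 95% of the estimates were smaller than 1.12-fold in either direction. The 95% confidence interval lay wholly within a 1.2-fold change for 77.2% of these genes and within a 1.5-fold change for 97.7%. Precision fell with expression, since the interval stayed within 1.2-fold for 97.5% of genes over 100 CPM, for 93.01% between 10 and 100 CPM and for 44.6% between 1 and 10 CPM. Below 0.1 CPM, with 6816 genes, the median standard error was 0.638 and no statement on modest changes is possible. Estimates were centred on 0, with a median LFC of -0.00085 and 49.1% of the genes with at least 1 CPM above 0. This centring follows in part from the TMM adjustment, which assumes that most genes do not differ between libraries.

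**Figure D1:**
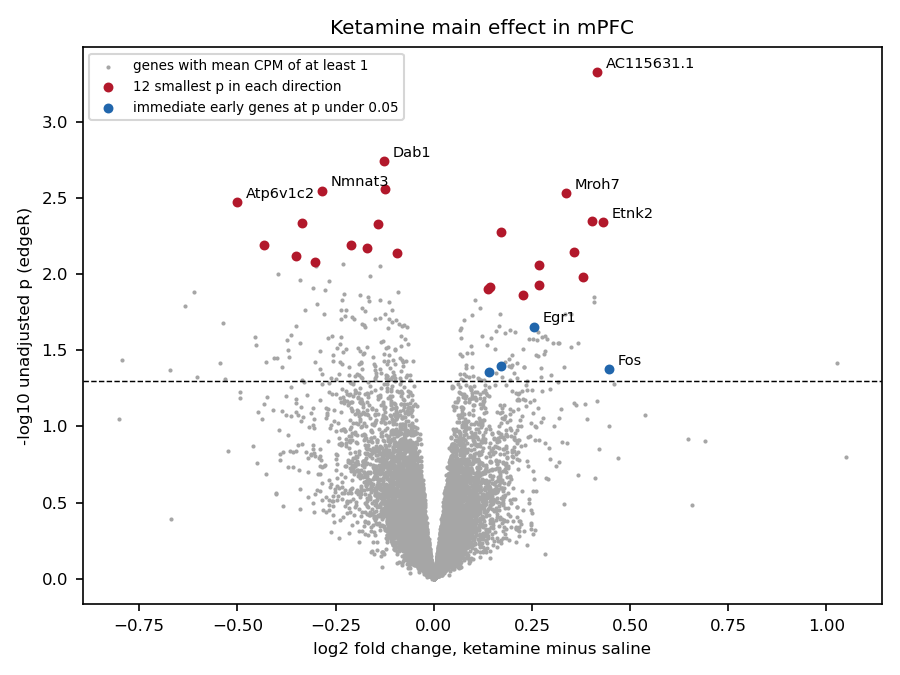
Each point is a gene with a mean of at least 1 CPM in the mPFC, plotted by its LFC (ketamine minus saline) and by the negative log10 of its unadjusted edgeR p, with the dashed line at 0.05. Red points are the 12 genes of smallest p in each direction and blue points the 4 immediate early genes under 0.05, and none of the points had an adjusted p under 0.05.

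The genes of smallest unadjusted p with at least 1 CPM are described as estimates, since none passed the adjusted test or came near it. The smallest adjusted p of 0.221 lay among genes below 1 CPM, which were not ranked here. The 12 higher estimates of smallest p among genes with at least 1 CPM had LFCs of 0.14 to 0.43 and unadjusted p values of 0.000474 to 0.0137. AC115631.1, a protein-coding locus that overlaps Ankhd1 on the same strand, had 0.728 to 1.81 CPM with ketamine (median 1.32) and 0.599 to 1.45 CPM with saline (median 1.04). The ranges overlapped, but 17 of 19 ketamine libraries lay above the saline median, and the LFC was 0.42 ± 0.11 (SE) with an unadjusted p of 0.000474. Etnk2 (chr1:133363572-133380336, GRCm38), an ethanolamine kinase of phospholipid synthesis, ranged from 4.71 to 16.5 CPM with ketamine (median 9.76) and from 3.87 to 12.8 CPM with saline (median 7.07). Its ketamine libraries were mostly in the upper part of the common range, with 16 of 19 above the saline median and an LFC of 0.43 ± 0.14. Mroh7 (chr4:106680417-106730925), which encodes a HEAT-repeat protein, spanned 7.26 to 19.9 CPM with ketamine (median 10.6) and 6.74 to 12.0 CPM with saline (median 9.58). The medians were close, and the LFC of 0.34 ± 0.11 came with 7 ketamine libraries above the highest saline library.

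Ptp4a3 and Mroh5 are neighbours on chromosome 15, with 1300 bases between the end of Ptp4a3 (chr15:73723145-73758766) and the start of Mroh5 (chr15:73760067-73839699), and both were among these 12. Ptp4a3, a protein tyrosine phosphatase, ranged from 41.6 to 64.9 CPM with ketamine (median 53.1) and from 37.8 to 62.4 CPM with saline (median 47.3). Nearly the whole range was shared, and 17 of 19 ketamine libraries lay above the saline median, with an LFC of 0.17 ± 0.058. Mroh5 had medians of 1.43 CPM with ketamine and 1.10 CPM with saline and an LFC of 0.40 ± 0.13. Further genes with higher estimates were Rab11fip1, an effector of Rab11 in endosomal recycling (LFC 0.27), Immp2l, a subunit of the mitochondrial inner membrane peptidase (0.27), the cytochrome P450 Cyp2u1 (0.14) and Pold1, the catalytic subunit of DNA polymerase delta (0.14). The other 3 were the noncoding genes Gm44167 (0.38), which lies within an intron of Atp2b2 on the same strand, and Cyp4x1os (0.36) and A230083G16Rik (0.23), which lie opposite Cyp4x1 and Ptms. Immp2l likewise overlaps Lrrn3 (mean 64.8 CPM) on the opposite strand. Whether the counting used strand is not given in the sources used here, so the reads of such overlapping genes cannot be told apart with certainty.

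The 12 lower estimates had LFCs of -0.50 to -0.093 and unadjusted p values of 0.00182 to 0.00836. Dab1 (chr4:103619359-104744844), the intracellular adaptor of reelin signaling, was the most abundant of them. It ranged from 98.4 to 119.9 CPM with ketamine (median 108.7) and from 102.05 to 147.1 CPM with saline (median 117.8). Only 2 of 19 ketamine libraries lay above the saline median, although the ranges overlapped, and the LFC was -0.13 ± 0.038 with a 95% interval of -0.20 to -0.050. Nmnat3, a mitochondrial enzyme of NAD synthesis, ranged from 1.46 to 2.37 CPM with ketamine (median 1.91) and from 1.605 to 3.17 CPM with saline (median 2.32). Here 1 of 19 ketamine libraries exceeded the saline median, and the LFC was -0.28 ± 0.090. Kcns2, a silent subunit that modifies Kv2 potassium channels, ranged from 24.8 to 36.2 CPM with ketamine (median 30.4) and from 25.3 to 40.1 CPM with saline (median 32.7). The lower part of its range was common to both treatments, and the LFC was -0.14 ± 0.048.

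The remaining lower estimates covered several kinds of genes. Atp6v1c2, a subunit of the proton-pumping V-ATPase, had medians of 1.48 CPM with ketamine and 2.22 CPM with saline and the largest of these differences (LFC -0.50 ± 0.16). Metabolic or ribosome-assembly genes among them were Mphosph10 of the small-subunit processome (-0.12 ± 0.039), Echs1 of mitochondrial fatty acid oxidation (-0.093 ± 0.033) and the ribokinase Rbks (-0.34 ± 0.11). Atp6v1c2, Echs1 and Rbks overlap Pdia6, Paox and Mrpl33 (means 87.5, 7.01 and 10.7 CPM) on the opposite strand. Their reads carry the uncertainty of overlapping genes named above. Matn2, a matrix adaptor protein, and Angpt1, the ligand of the endothelial receptor Tie2, had LFCs of -0.21 ± 0.074 and -0.30 ± 0.11. The small GTPase gene Rab40b (-0.17 ± 0.060), the lincRNA Gm15728 (-0.35 ± 0.13) and the class I-region gene Gm6034 (-0.43 ± 0.15) completed the group. Gm6034 lies 213 bases from the class I gene H2-T22. It was at 0.284 to 1.21 CPM in the libraries above 5 CPM of H2-T22 and at 0.802 to 2.48 CPM in the others. The part of the H2-T22 level of each mouse in the lower Gm6034 was not tested. For all 12 higher and all 12 lower genes the estimate had the same sign within CTRL and within CSDS mice, which follows in part from choosing them on the effect across both groups.

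**Figure D2:**
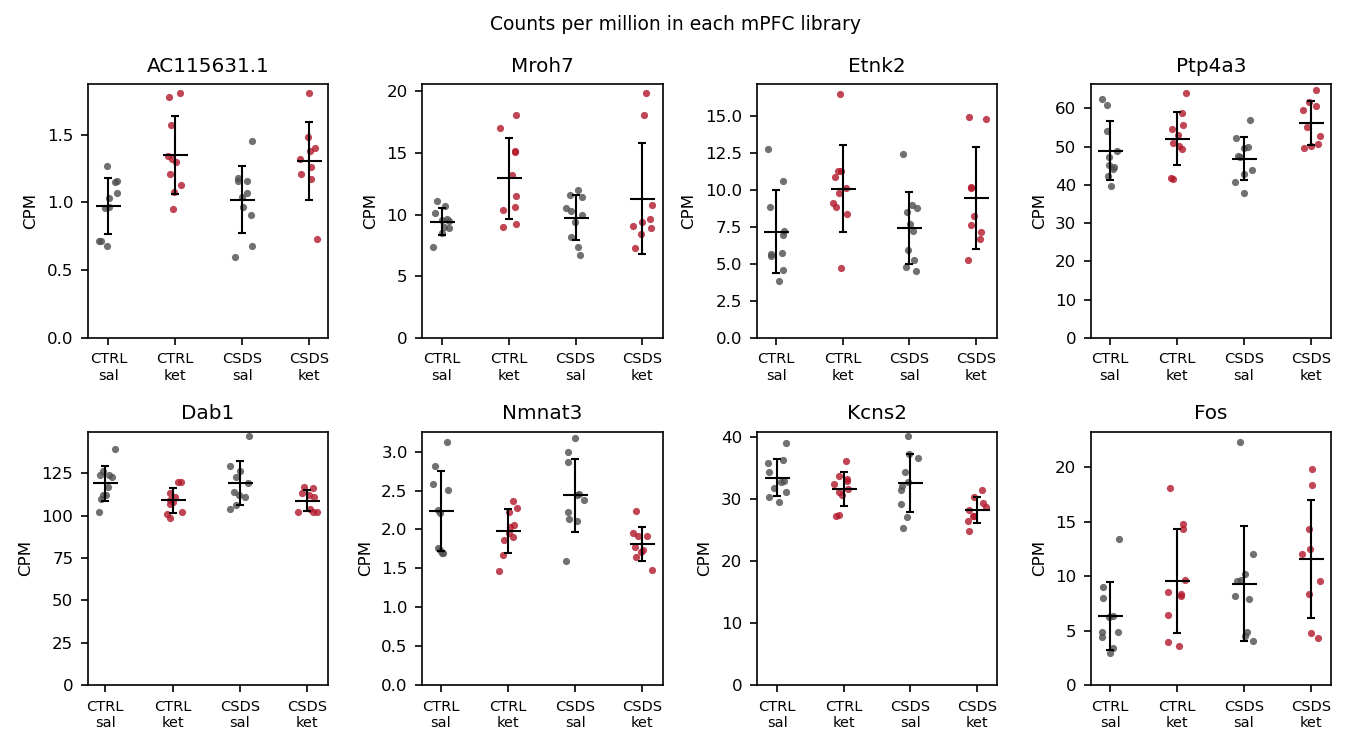
Each point is the CPM of 1 gene in 1 mPFC library, by stress group and treatment (sal, saline; ket, ketamine), with the group mean and SD as bars, for 8 genes. The treatments overlap in every panel, and the ketamine means lie above saline for AC115631.1, Mroh7, Etnk2, Ptp4a3 and Fos and below it for Dab1, Nmnat3 and Kcns2.

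Genes of the drug's target and of the pathways usually linked to it were at nearly the same level in both treatments when taken across stress groups. Among the 7 NMDA receptor subunit genes, 0 had an unadjusted p under 0.05 (1.61% of all genes with at least 1 CPM did), and the median LFC was -0.0098. Grin1, the obligatory subunit, ranged from 529 to 684 CPM with ketamine (median 633) and from 563 to 705 CPM with saline (median 615), with an LFC of 0.0099 and a 95% interval of -0.053 to 0.073. Grin2a and Grin2b, the main glutamate-binding subunits, had LFCs of 0.041 (-0.080 to 0.16) and -0.0098 (-0.15 to 0.13), and the smallest p of the subunits was that of Grin3a (LFC -0.070, unadjusted p = 0.168). Within CTRL and CSDS mice, Grin2b had LFCs of 0.13 and -0.16 (unadjusted interaction p = 0.0303) and Grin3a of 0.0044 and -0.15 (unadjusted interaction p = 0.126). With 3 principal components as covariates, a setting chosen after the data were seen, those of Grin2b were 0.074 and 0.0054 and those of Grin3a -0.034 and -0.053. The AMPA and kainate receptor genes (0 of 9 under 0.05, median LFC 0.011), the 7 metabotropic glutamate receptor genes tested (0, median 0.043) and the GABA-A receptor genes (0 of 12, median -0.012) gave no member under 0.05 either. The smallest p values in these families were those of Gria1 (LFC -0.036, unadjusted p = 0.308), Grm4 (LFC 0.12, unadjusted p = 0.0905) and Gabra2 (LFC -0.098, unadjusted p = 0.144).

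Of 26 genes of BDNF, TrkB and mTOR signaling, 13 had higher and 13 lower estimates, 0 had an unadjusted p under 0.05 and the median LFC was -0.0031. Bdnf ranged from 15.2 to 24.7 CPM with ketamine (median 20.4) and from 16.1 to 24.6 CPM with saline (median 20.2), and the ranges were nearly the same. Its LFC was 0.043 with a 95% interval of -0.089 to 0.18. The intervals were narrower for Ntrk2, the TrkB gene (LFC -0.023, -0.10 to 0.055), for Mtor (-0.011, -0.091 to 0.070), for the elongation factor gene Eef2 (-0.0085, -0.067 to 0.050) and for its kinase Eef2k (0.0056, -0.068 to 0.079). Vgf, a neuropeptide precursor gene responsive to BDNF, had the smallest p of the list (LFC 0.12, unadjusted p = 0.153). Scaffolds of the postsynapse (0 of 19 under 0.05, median LFC -0.013) included Dlg4, the PSD-95 gene, at 0.013 below saline (95% interval -0.096 to 0.070) and Homer2 with the smallest p (LFC -0.11, unadjusted p = 0.122). Genes of presynaptic release (0 of 20, median 0.028) had 16 estimates above and 4 below 0, with the smallest p for the complexin gene Cplx2 (LFC -0.077, unadjusted p = 0.0744).

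Stress-axis genes were similarly close across stress groups. The glucocorticoid and CRH list had 0 of 13 members under 0.05 and a median LFC of -0.012. Nr3c1, the glucocorticoid receptor gene, had an LFC of 0.00096 (95% interval -0.11 to 0.12) and its co-chaperone gene Fkbp5 one of -0.012 (-0.12 to 0.098). Crhbp, which encodes the CRH-binding protein, had the smallest p (LFC 0.13, unadjusted p = 0.121), with LFCs of 0.00015 within CTRL and 0.27 within CSDS mice (unadjusted interaction p = 0.106), and Crh itself had an LFC of 0.15 (-0.093 to 0.39).

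A permutation test within stress groups on log2(CPM + 0.5), two-sided and with 100000 resamples, was run for 19 genes of these themes. It gave 0 genes under 0.05, and the smallest p values were 0.0675 for Sst and 0.0684 for Fos. For 13 of 18 genes shown in the plot of intervals, the 95% interval lay within a 1.2-fold change. The exceptions were Arc, Crh, Fos, Pvalb and Sst, for which larger differences in either or one direction were not excluded by the interval. The class I gene H2-T22, left out of the plot for its wide interval, ranged from 0.297 to 10.2 CPM with ketamine and from 0.103 to 11.9 CPM with saline, and its LFC was 0.040 ± 0.50. Its medians were 0.708 and 0.721 CPM, and 5 ketamine libraries, all of CSDS mice, and 3 saline libraries were above 5 CPM. The LFCs within CTRL and CSDS mice were -1.28 and 0.99 (unadjusted interaction p = 0.0239), and without mouse 22, a saline mouse, the LFC within CTRL mice was -0.039. For the effect across stress groups, leaving out 1 mouse at a time moved the LFC between -0.088 and 0.63.

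**Figure D3:**
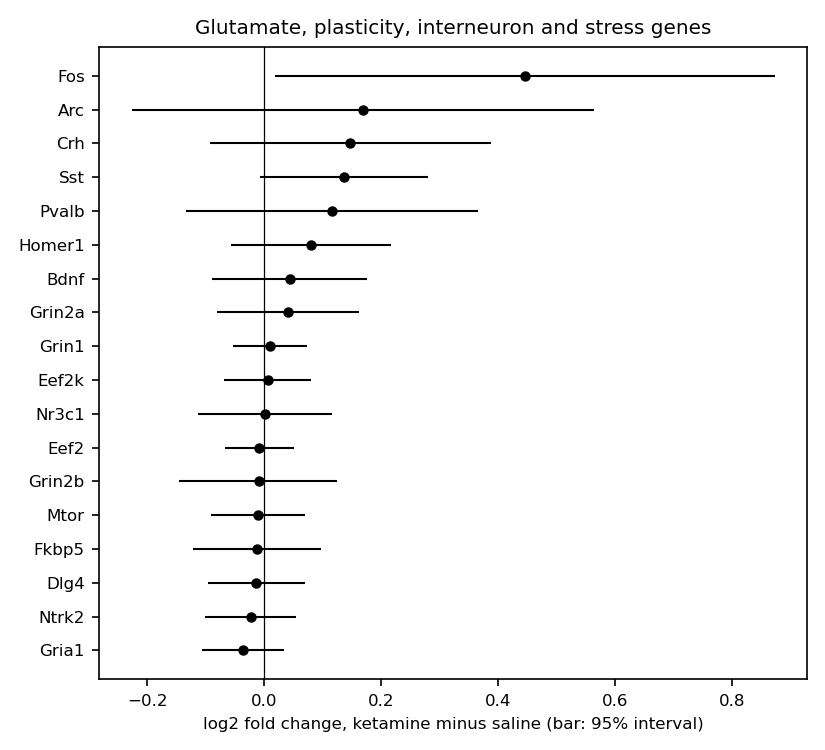
Points are LFCs (ketamine minus saline, edgeR) of 18 genes in the mPFC and bars their 95% intervals. The intervals of all genes except Fos include 0, and Fos reaches from 0.018 to 0.87.

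Immediate early genes were the pathway list with the most members under 0.05. Of its 19 members, 18 had estimates above 0, 4 were higher at an unadjusted p under 0.05 and 0 were lower, beside 0.586% of all genes with at least 1 CPM that were higher at that threshold. The median LFC was 0.125, compared with -0.00085 over all genes with at least 1 CPM. None of the members passed the adjusted test, and since shared signals drive their transcription they are not independent observations. Fos ranged from 3.54 to 19.8 CPM with ketamine (median 9.51) and from 2.96 to 22.3 CPM with saline (median 7.13). The highest library of all was a saline library, that of mouse 15, and 14 of 19 ketamine libraries lay above the saline median. The LFC of Fos was 0.45 ± 0.21 with an unadjusted p of 0.042, while the permutation test gave p = 0.0684.

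Egr1, a zinc finger transcription factor gene and the most abundant of the 4, ranged from 106.2 to 276 CPM with ketamine (median 183) and from 91.97 to 252 CPM with saline (median 149.3). The ranges overlapped almost wholly, with 12 of 19 ketamine libraries above the saline median and an LFC of 0.26 ± 0.11 (unadjusted p = 0.0221). Egr4 and the AP-1 gene Fosl2 had LFCs of 0.17 ± 0.081 and 0.14 ± 0.068. Members not under 0.05 included Fosb (LFC 0.125, unadjusted p = 0.0702), Npas4 (0.21, 0.111), Arc (0.17, 0.396) and Homer1 (0.080, 0.243), and Btg2 was the member with an estimate below 0 (-0.067). With the run of mouse numbers, taken as a stand-in for the home group, which no label gives, as a covariate in edgeR, 2 of 19 members were under 0.05, and with the first 3 principal components as covariates, a setting chosen after the data were seen, again 2. Leaving out 1 mouse at a time gave between 1 and 8 members under 0.05, with the 8 found without mouse 15. In the vHipp, 13 of 19 estimates were above 0 with a median of 0.025, and Fos and Egr1 had LFCs of -0.056 and 0.016. The difference between regions had an unadjusted p of 0.0956 for Fos and 0.0904 for Egr1.

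Other pathway lists held few members under 0.05. Over the 17 pathway lists with 327 genes tested, 5 genes were higher (1.53%) and 1 was lower (0.306%) at an unadjusted p under 0.05, beside 1.31% and 1.58% of all genes tested and 0.586% and 1.03% of those with at least 1 CPM, and 14 lists had none. The lower gene was Htr1d, a serotonin receptor gene near the limit of detection, with 0 to 0.423 CPM with ketamine (median 0.262) and 0.165 to 1.05 CPM with saline (median 0.308). Its ranges overlapped, and the LFC was -0.54 ± 0.26. The remaining serotonin and dopamine receptor genes (15 of 16) were not under 0.05. The fifth higher gene was Rpl30 of the large ribosomal subunit, with 34.7 to 88.6 CPM with ketamine (median 64.5) and 27.2 to 76.7 CPM with saline (median 51.7). It stood apart from its list, since 70 of the 78 ribosomal protein genes had estimates below 0 and their median LFC was -0.027, while that of Rpl30 was 0.25 ± 0.11. Rpl30 lies 4231 bases from Matn2 on chromosome 15, a gene with a lower estimate above, and a link between both estimates was not tested.

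Mitochondrially encoded mRNAs had estimates below 0 for 13 of 13 genes, with a median LFC of -0.15, but 0 were under 0.05. In the vHipp the same list had 13 of 13 estimates above 0 (median 0.119). The smallest p in the mPFC was that of mt-Nd1, a complex I subunit gene. This gene ranged from 3974 to 5822 CPM with ketamine (median 5054) and from 3962 to 6952 CPM with saline (median 5295). Its LFC was -0.100 ± 0.054 (unadjusted p = 0.0709). Nuclear genes of complex I did not share this direction, with 20 of 35 estimates above 0 and a median LFC of 0.0041, the smallest p being that of Ndufa8 (LFC 0.060, unadjusted p = 0.139). Interferon-response and antigen-presentation genes had 12 of 15 estimates below 0 (median -0.090, 0 under 0.05), with the smallest p for the deubiquitinase gene Usp18 (LFC -0.36, unadjusted p = 0.151). No member under 0.05 was found among 18 clock genes (median LFC 0.0074, smallest p for Per2, 0.117), 12 genes of the perineuronal net and matrix (median -0.022, smallest p for Hapln4, 0.154) or 8 opioid genes (median 0.016, smallest p for Pomc, 0.229).

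Markers of the cell types of the punch were examined because a shift in their share would move many genes together. Over 13 marker lists, 1 gene was higher (0.84% of those tested) and 4 were lower (3.36%) at an unadjusted p under 0.05, to be read beside the same shares of all genes. Excitatory neuron markers had a median LFC of 0.018 (0 of 7 under 0.05, smallest p for Nrgn, 0.403) and cortical layer markers one of 0.0076 (0 of 12, smallest p for Calb1, 0.177). Inhibitory interneuron markers had 0 of 12 members under 0.05 and a median LFC of 0.012. Sst, the somatostatin gene, came nearest, with 105.5 to 175 CPM with ketamine (median 141.7) and 98.7 to 171 CPM with saline (median 123.3). Its ranges overlapped almost wholly, with 14 of 19 ketamine libraries above the saline median and an LFC of 0.14 (95% interval -0.0076 to 0.28). Pvalb, the parvalbumin gene, had an LFC of 0.12 (-0.13 to 0.37).

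Glial markers differed by less than the spread between libraries. Oligodendrocyte markers had estimates above 0 for 14 of 14 genes (median LFC 0.141, 0 under 0.05, smallest p for Sox10, 0.36), and their summed level ranged from 706 to 6798 CPM with ketamine (median 1915) and from 760 to 6908 CPM with saline (median 1466). Leaving out 1 mouse at a time moved the LFC of Sox10 (0.154) between 0.056 and 0.256. Astrocyte markers had 11 of 12 estimates below 0 (median -0.069, smallest p for Slc1a3, 0.152) and microglia markers likewise 11 of 12 (median -0.073, smallest p for Aif1, 0.164), with 0 under 0.05 in either list. Endothelial (median -0.028, smallest p for Itm2a, 0.0626) and mural cell markers (median -0.054, smallest p for Acta2, 0.366) also had 0 under 0.05. In the list of oligodendrocyte precursors, Lhfpl3 was lower (LFC -0.18 ± 0.074, unadjusted p = 0.0167), while the other 3 markers were not under 0.05. In the vHipp, estimates were above 0 for 12 of 12 astrocyte, 10 of 12 microglia and 9 of 9 endothelial markers (medians 0.103, 0.105 and 0.098).

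Among markers from outside the cortical tissue, those of meninges and blood leaned to one side. Meningeal fibroblast markers had 8 of 8 estimates below 0 (median LFC -0.236), with the matrix proteoglycan genes Lum (-0.60 ± 0.29) and Ogn (-0.67 ± 0.32) lower at an unadjusted p under 0.05, and a summed level of 30.5 to 170 CPM with ketamine (median 72.8) and 39.0 to 261 CPM with saline (median 77.4). Lum was under 0.05 in 4 and Ogn in 6 of 11 other settings, and with 3 principal components as covariates their LFCs were -0.13 and -0.14. Red blood cell markers had 5 of 5 estimates below 0 (median -0.388), 0 under 0.05 and the smallest p for Hbb-bs (0.0776), with sums of 58.3 to 249 CPM and 84.6 to 481 CPM. The part of meninges and blood in the lower estimates of other genes was not tested. Among choroid plexus markers, Kcnj13 was lower (LFC -1.14 ± 0.37, unadjusted p = 0.00221) at a median of 0.190 CPM with ketamine and 0.312 CPM with saline, but it overlaps Gigyf2 on the opposite strand and the list as a whole had 4 estimates above and 4 below 0. Of 10 markers of striatal projection neurons, which would mark a punch reaching the striatum, only Rgs9, a regulator of G protein signaling, was under 0.05 (LFC 0.41 ± 0.16, unadjusted p = 0.0142; with 3 principal components 0.27, unadjusted p = 0.0683), and the median LFC of the list was -0.028.

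**Figure D4:**
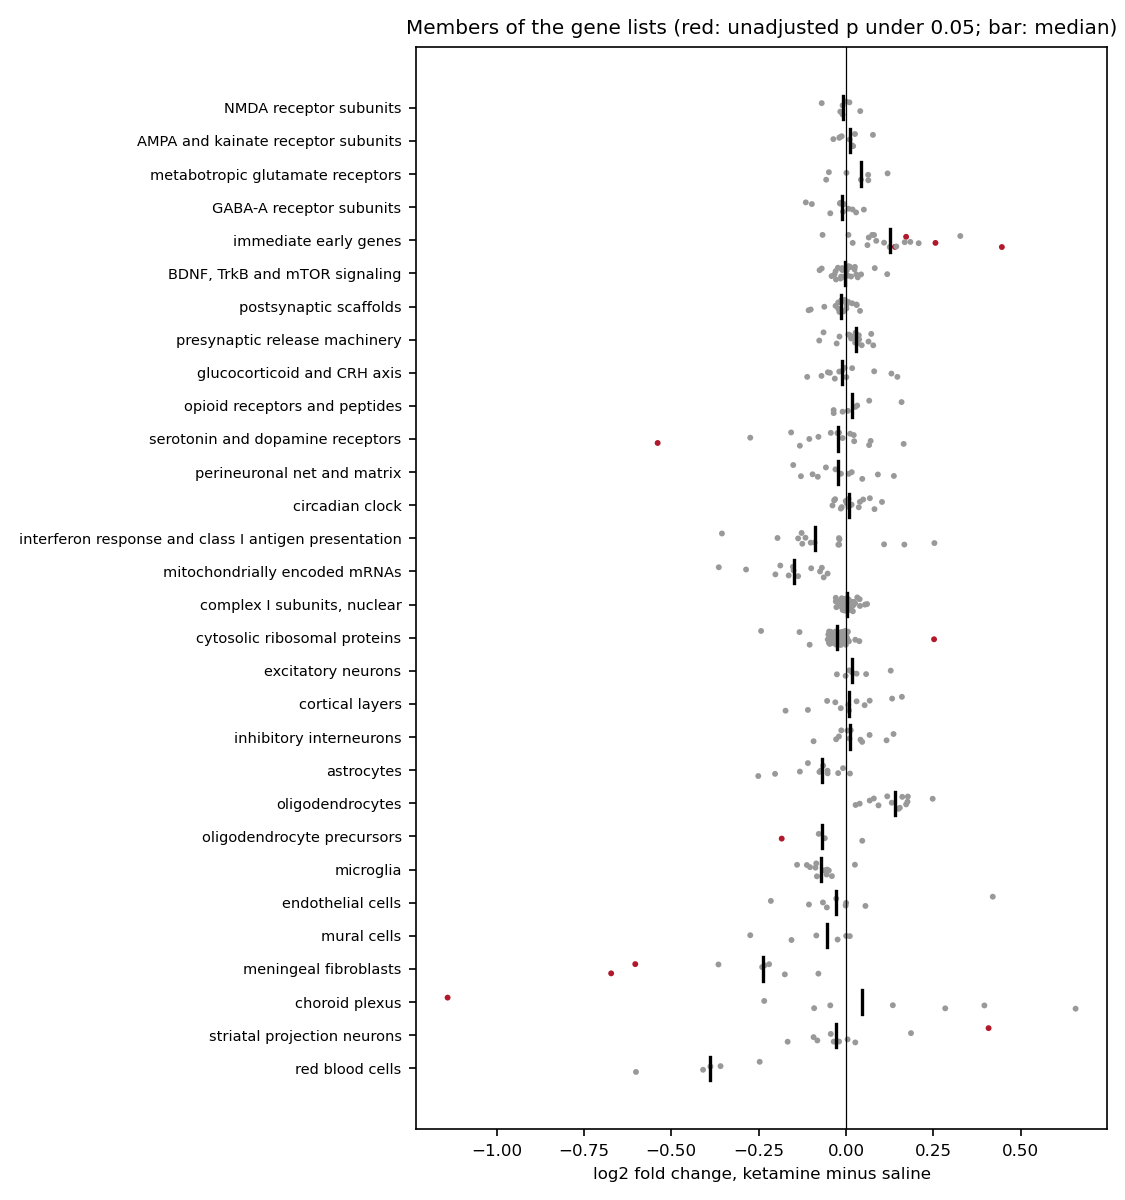
Each point is the LFC (ketamine minus saline) of 1 member of a gene list in the mPFC, red where the unadjusted p was under 0.05, and the black bar is the median of the list. Most medians lie close to 0, while immediate early genes (0.125) and oligodendrocyte markers (0.141) sit above it and mitochondrially encoded mRNAs (-0.15), meningeal (-0.236) and red blood cell markers (-0.388) below it.

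The effect across stress groups is an average, and its 2 components, which share no library, were estimated separately in 1 fit with 4 groups. Within CTRL mice 375 of 15691 genes (2.39%) and within CSDS mice 510 (3.25%) had an unadjusted p under 0.05, and 0 genes in either had an adjusted p under 0.05. The estimates tended to opposite signs. Across 15691 genes with at least 1 CPM, the LFC within CTRL and that within CSDS mice had a Pearson r of -0.147 and a Spearman rho of -0.208, and 59.7% of the genes differed in sign. These values are across genes, which are not independent replicates. With the first 3 principal components of the libraries as covariates, a setting chosen after the data were seen, Pearson r was -0.107, rho was -0.028 and 50.4% of the genes differed in sign. The components held 17.6%, 12.4% and 8.15% of the variance.

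Of the 30 lists, 20 had medians of opposite sign in the 2 stress groups, a share to be read beside the 59.7% of all genes that differed in sign, and no list was tested for the difference. Without mouse 22 there were 17 such lists, and with 3 principal components as covariates 13, both settings chosen after the data were seen. Nuclear complex I genes had 0 of 35 estimates above 0 in CTRL mice (median LFC -0.074) and 34 of 35 above 0 in CSDS mice (median 0.087). Ribosomal protein genes had 2 of 78 above 0 in CTRL mice and 72 of 78 in CSDS mice, with medians of -0.088 and 0.045. Without mouse 22, complex I genes had 6 of 35 above 0 in CTRL mice with a median of -0.040. With the principal components, complex I genes had medians of -0.038 and 0.00063 and ribosomal protein genes of -0.034 and -0.031. AMPA and kainate receptor genes went the other way, with 8 of 9 above 0 in CTRL mice (median 0.048) and 8 of 9 below 0 in CSDS mice (median -0.065), as did GABA-A receptor genes (medians 0.040 and -0.083). With the principal components the GABA-A medians were -0.019 and 0.013, and those of the AMPA and kainate receptor genes 0.0050 and -0.018. Oligodendrocyte markers, a measure of white matter in the punch, had 14 of 14 estimates below 0 in CTRL mice (median -0.136) and 14 of 14 above 0 in CSDS mice (median 0.432). The sign in CTRL mice rested on mouse 22, a saline mouse with a summed level of 6908 CPM (next 3268), since without it 13 of 14 were above 0 with a median of 0.200. With the principal components, 13 of 14 were above 0 in CTRL mice (median 0.069) and 9 of 14 in CSDS mice (median 0.0066). The medians of the summed level were 1466 and 1811 CPM in CTRL mice with saline and ketamine and 1706 and 2603 CPM in CSDS mice. The part of tissue composition in the opposite estimates was not tested. Immediate early genes kept to one side of 0 in median, at 0.167 in CTRL mice and 0.065 in CSDS mice.

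**Figure D5:**
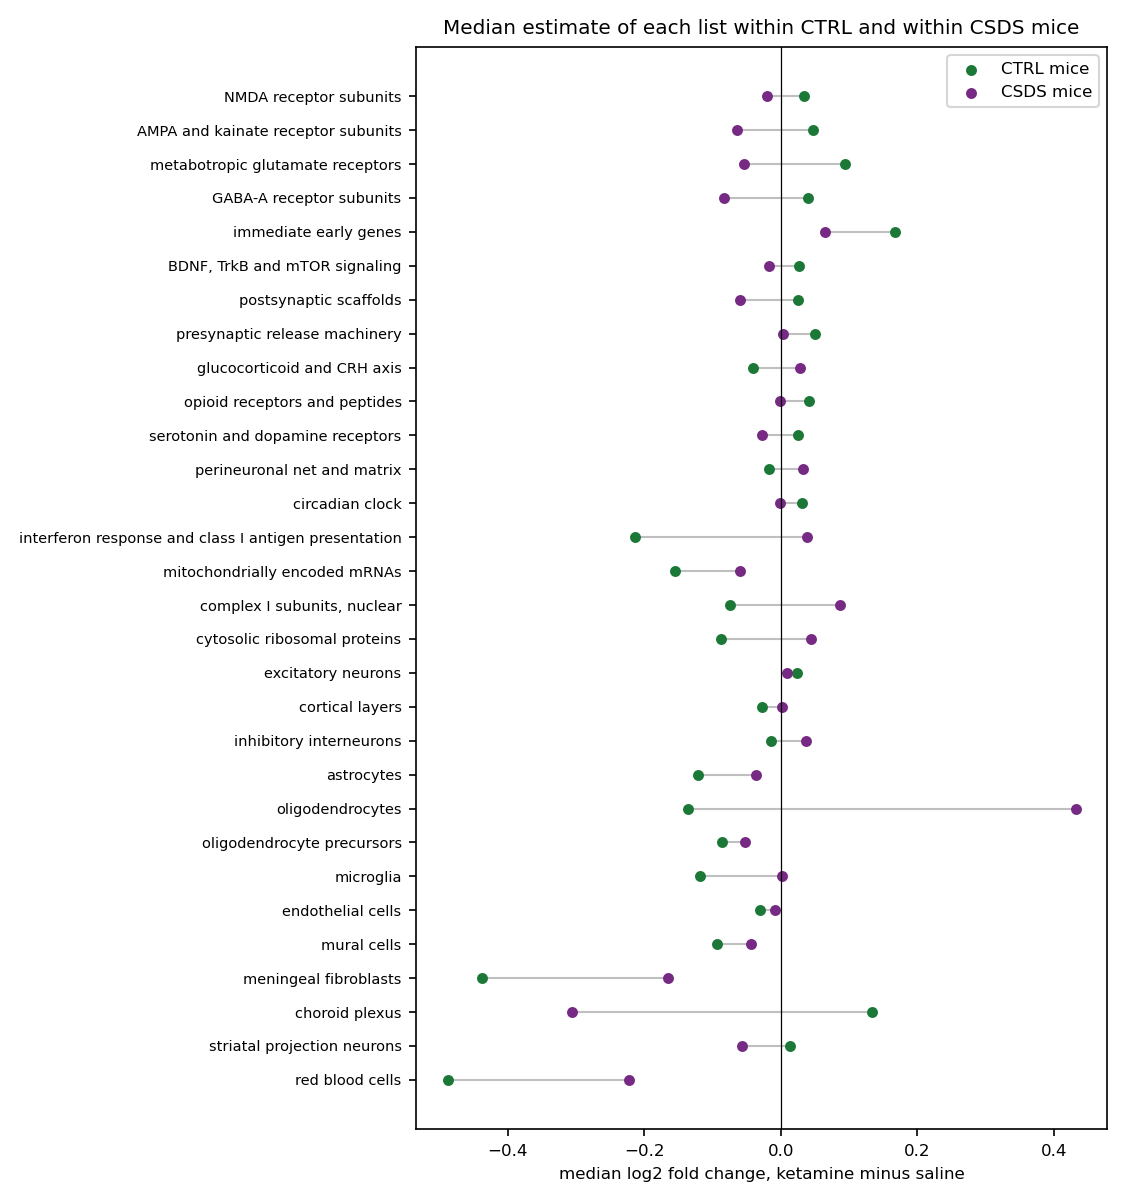
For each gene list, points give the median LFC (ketamine minus saline) of its members within CTRL mice (green) and within CSDS mice (purple), joined by a line. Of the 30 lists, 20 have medians on opposite sides of 0, and oligodendrocyte markers lie at -0.136 and 0.432, where the CTRL value without saline mouse 22 was 0.200.

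Tested directly, the interaction of stress and ketamine had an unadjusted p under 0.05 for 767 of 15691 genes (4.89%) and an adjusted p under 0.05 for 0 genes, with 0.771 as the smallest adjusted p. The 3 genes of smallest p were Gm26871, Gm21887 and Dsn1. Dsn1, a kinetochore gene, had medians of 3.68 CPM with saline and 2.84 CPM with ketamine in CTRL mice, and of 2.95 and 3.56 CPM in CSDS mice. Its effect across stress groups was accordingly near 0 (LFC 0.0067), while the LFCs within CTRL and CSDS mice were -0.30 and 0.33. Gm26871, a noncoding gene, had LFCs of 0.29 and -0.49, and Gm21887 had -0.88 and 0.47. With 3 principal components as covariates the LFCs were -0.26 and 0.32 for Dsn1, 0.26 and -0.38 for Gm26871 and -0.76 and 0.16 for Gm21887. Of 22 genes under 0.05 in both stress groups, 3 had the same sign and 19 opposite signs, and with 3 principal components as covariates these were 7 and 19 of 26. The 3 were AC115631.1 (LFC 0.48 in CTRL and 0.35 in CSDS mice), Dab1 (-0.12 and -0.13) and Atp6v1c2 (-0.49 and -0.52), and each is also among the genes of smallest p across both groups. AC115631.1 and Atp6v1c2 overlap other genes, as given above.

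The vHipp of these 39 mice and of mouse 5 was used to see which estimates were shared between regions. There, 263 of 15688 genes (1.68%) had an unadjusted p under 0.05, and 0 of the 28991 genes tested had an adjusted p under 0.05. Of 21 genes under 0.05 in both regions, 20 had the same sign and 1, Mfsd1, the opposite sign (LFC -0.091 in cortex and 0.076 in hippocampus). Across all 15688 genes, which are not independent replicates, the LFCs of both regions had a Pearson r of 0.172 and a Spearman rho of 0.122. Both regions came from the same animals, so this is not a repeat in other mice. The 8 genes ranked first by the larger of both p values were Mroh7 (LFC 0.34 in the mPFC and 0.36 in the vHipp), Mroh5 (0.40 and 0.67), Ptp4a3 (0.17 and 0.22), Capn6 (0.41 and 0.44), Abcb8 (-0.23 and -0.20), Car3 (-0.61 and -0.81), Catsperg2 (-0.63 and -0.63) and Ptgds (-0.54 and -0.86). Car3 was at a low level in the vHipp, with medians of 0.228 CPM with ketamine and 0.407 CPM with saline. Ptgds, the gene of a prostaglandin D synthase abundant in meninges and choroid plexus, ranged from 51.1 to 402 CPM with ketamine (median 158) and from 92.8 to 709 CPM with saline (median 236). The ketamine libraries lay low in the common range, with 5 of 19 above the saline median. Its LFC was -0.997 within CTRL and -0.054 within CSDS mice (unadjusted interaction p = 0.0311). In the vHipp, choroid plexus markers had 8 of 8 estimates below 0 (median -1.43, 6 under 0.05) and meningeal markers 7 of 8 (median -0.288, 1 under 0.05), and their part in the lower Ptgds was not tested. Dab1, in contrast, had an LFC of 0.037 in the vHipp, and its difference between regions had an unadjusted p of 0.00832.

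Some of these shared genes were at levels that followed the mouse. Across 15688 genes, a median of 4 mice were among the 10 highest of 39 mice in both regions, and 5.46% of genes had 7 or more. Mroh7 and Abcb8 had 7 such mice, Ptp4a3 6, and the lincRNA Gm15728, lower at an LFC of -0.35 in cortex and -0.27 in hippocampus, had 9, as did H2-T22. Catsperg2 was nearly absent from the mPFC of mice 32, 16 and 17 with ketamine (0.143, 0.106 and 0.221 CPM) and of mouse 19 with saline (0.180 CPM). The other mPFC libraries had 0.734 to 4.60 CPM of it. Its lowest vHipp libraries had 0.156 CPM with ketamine and 0.0839 CPM with saline. The part of lasting differences between individual mice in these estimates was not tested. The difference of the ketamine effect between regions had an unadjusted p under 0.05 for 182 of 15691 genes (1.16%) and an adjusted p under 0.05 for 0 genes, with 0.459 as the smallest. The 3 genes of smallest p with at least 1 CPM were Mfsd1, Ttr and Fap. The transthyretin gene Ttr of the choroid plexus had an LFC of 0.66 ± 0.65 in cortex and -4.40 in hippocampus, and Fap had 0.092 ± 0.089 and -0.62, so for both the difference lay mainly in the vHipp. There Fap was at a low level, with medians of 0.230 CPM with ketamine and 0.418 CPM with saline. Leaving out 1 mouse at a time moved the LFC of Ttr in cortex between -0.26, without mouse 34, and 1.52, without mouse 24, and in the vHipp its highest saline library had 654 CPM at a median of 0.297 CPM.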

How the data were processed

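The authors deposited raw counts, whole numbers of reads per gene and library for 55471 genes of GRCm38, without normalization. Stranded mRNA libraries were made from samples with an RNA integrity number of at least 8, and bcl2fastq 2.20.0.422 appears in the submitters' processing notes. Aligner and counting program are not given in the sources used here. Genes with more than 10 counts in total and detected in more than 3 libraries were tested with edgeR 4.0.16 (R 4.3.3, TMM, quasi-likelihood test, two-sided, Benjamini-Hochberg adjustment, threshold 0.05), with stress and treatment as terms. DESeq2 1.42.0, the tool of the study, and limma 3.58.1 were alternatives. Within-stress effects and the interaction came from a fit of 4 groups. The regions were paired by mouse number, as labelled. Models were tested on simulated data. Replicates are separate mice. Social rank was not used, and home groups were represented only by runs of 4 mouse numbers, an assumption, in alternatives.

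Named genes were the 12 of smallest p in each direction with a mean of at least 1 CPM, members of 30 lists under 0.05 or else the one of smallest p, 19 genes of interest, the 3 of smallest p for the interaction and for the difference between regions, and up to 8 under 0.05 in both stress groups or in both regions. Members and lists were chosen with earlier results of these data known. Fosb, Npas4, Btg2 and Gm15728 in its vHipp values were named after their values were seen. A list of genes and a gene of interest are not reported here.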

Additional observations from a re-analysis of the deposited data

Results flagged for a closer look

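In groups of 9 or 10 libraries, a library was singled out where its gap to the nearest other library was large relative to the range of the group (Dixon's criterion at 95%). This was applied to 396 combinations of a named gene, marker sum or total count with a group, and 37 (9.34%) met it, where chance gives about 1 in 20 for normally distributed values, a rate not tested for these CPM values. Mouse 22, a CTRL mouse with saline, met it 5 times and mouse 2, a CSDS mouse with saline, 4 times.

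Tissue markers accounted for several of these. In CTRL mice with saline, mouse 22 had the highest sum of oligodendrocyte markers (6908 CPM, next 3268), the highest Sox10 (61.65 CPM, next 35.19) and the lowest sum of cortical layer markers (602.8 CPM, next 754.8). In CSDS mice with saline, mouse 2 had the highest oligodendrocyte sum (5581 CPM, next 2985), Sox10 (56.11 CPM), choroid plexus sum (17.18 CPM) and Fkbp5 (32.35 CPM, next 24.16). Mouse 30, CTRL with saline, was highest for the meningeal sum (260.9 CPM, next 157.8), Lum (38.92 CPM, next 17.36) and Cplx2 (1268 CPM), and without it the LFC of Lum was -0.39 and its unadjusted p was 0.163. Choroid plexus sums also stood apart in mouse 24, CTRL with saline (21.6 CPM), in mouse 34, CTRL with ketamine (33.66 CPM), and in mouse 3, CSDS with ketamine (12.35 CPM), and Ttr did so in mouse 24 (10.84 CPM, next 1.265) and in mouse 34 (24.27 CPM). Kcnj13 was high in mouse 4, CSDS with saline (1.159 CPM), and Acta2 in mouse 21, CTRL with ketamine (112.8 CPM, next 63.91).

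Among activity-dependent genes, mouse 15, CSDS with saline, was highest for Fos (22.29 CPM, next 11.97), for Arc (150.6 CPM, next 91.46) and for Gm26871 (11.44 CPM), and mouse 20, CSDS with ketamine, for Egr4 (27.46 CPM, next 20.29). Without mouse 15 the smallest unadjusted p of Fos over all mice left out, 0.00727, was reached, whereas without mouse 20 the unadjusted p of Egr4 was 0.0977, its largest over all mice left out.

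H2-T22 was at 9.404 CPM in mouse 22 and at most 1.021 CPM in the other CTRL mice with saline. In this group, single libraries also stood high for Immp2l (2.554 CPM, mouse 22), Htr1d (1.049 CPM, mouse 27), Lhfpl3 (24.14 CPM, mouse 27), Gm26871 (7.372 CPM, mouse 24), Rab11fip1 (3.024 CPM, mouse 35), Capn6 (4.616 CPM, mouse 38) and Cyp2u1 (12.95 CPM, mouse 33). In CTRL mice with ketamine such genes were Cyp2u1 (14.85 CPM, mouse 31), Grm4 (31.44 CPM, mouse 26) and Eef2 (1115 CPM, mouse 21). In CSDS mice they were Angpt1 with saline (13.35 CPM, mouse 7) and, with ketamine, Rab40b (38.27 CPM, mouse 1) and Cyp4x1os (2.911 CPM, mouse 14). Total counts stood apart in mouse 4 (34501588) and in mouse 23 (34135805), and without both libraries the genes at an adjusted p under 0.05 were again 0.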

How the results depend on the processing

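No gene reached an adjusted p under 0.05 for ketamine in the mPFC under any of 11 other settings or with any of 39 mice left out in turn. The number of genes at an unadjusted p under 0.05 (839) changed to 497 with DESeq2 and the run of 4 mouse numbers as a covariate, to 1485 without a filter and to 320 with filterByExpr, which differ in the number of genes tested in the last 2 cases, and ranged from 759 to 980 with 1 mouse left out. For the interaction, filterByExpr gave 914 genes in place of 1539. Immediate early genes at an unadjusted p under 0.05 (4) changed to 2 in limma-voom with the run as a random effect, in edgeR and in DESeq2 with the run as a covariate, in edgeR with the group of 4 library numbers as a covariate and in edgeR with 3 principal components, and to between 1 and 8 with 1 mouse left out. Leaving out mice 24, 4, 26, 8, 29, 31 or 39 gave 2, leaving out mice 27, 25, 7, 6, 33, 36, 18 or 20 gave 1, and leaving out mouse 15 gave 8; the cause was not tested. The members with estimates above 0 numbered 17 or 18 under these settings, and 16 of the 18 were above 0 under every one, the exceptions being Jun and Egr3. With the mouse number as replicate block, the difference between regions had 0 genes at an adjusted and 844 at an unadjusted p under 0.05, a count within 1.5 times that without the block, and the block changed no call at an adjusted p under 0.05. None of the named genes with an unadjusted p under 0.05 reversed its direction under these settings or without any 1 mouse. Sizes did move. Over the 11 settings the LFC lay between -0.343 and -0.179 for Angpt1, -0.127 and -0.082 for Dab1 and -0.555 and -0.322 for Ptgds. Each of these 3 genes had an unadjusted p under 0.05 in all 11. An unadjusted p under 0.05 was found for Egr4 in 7 of the 11 settings, for Ogn in 6, for Lum in 4, for Fosl2, Rgs9 and Rpl30 in 10 each and for Htr1d in 8 of 10. With 1 mouse left out it was lost for Htr1d in 9 of 39 cases (p = 0.113 without mouse 27), for Ptgds without mouse 24 (p = 0.0563) and for Rpl30 without mouse 1 (p = 0.0521). The call for Fos was lost in 5 (largest p = 0.0996, with 3 principal components) and, leaving out 1 mouse, held in 23 of 39 cases, as did that for Egr4 in 26 and that for Fosl2 in 16. Those for Lum and Ogn each held in 22 of 39 cases with 1 mouse left out. Changes smaller than the intervals above, and modest changes in genes below 0.1 CPM, could not be detected with 39 libraries.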
